A study of Mus musculus with 12 samples.

Results

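Hnf4a, Hnf4g, Ppara, Ppargc1a, Esrra, Esrrb, Esrrg and Maf are regulators of transcription in kidney tubules, and their RNA was followed here in 12 whole mouse kidneys. They were taken by symbol from the deposited count tables, where they are 8 of 24062 symbols, and all 8 passed the filter on low counts in every comparison. The kidneys were collected at postnatal day 3 (P3), when nephron formation in the mouse is ending, and belonged to 4 groups of 3. In LIN28B Wt1 mice, on a C57BL/6 background, human LIN28B was expressed from a TRE-LIN28B transgene through lox-STOP-lox-rtTA and a Wt1-Cre driver after a 1-day doxycycline pulse late in gestation. The driver is active in early kidney mesenchyme, in the nephrons formed from it and in podocytes. Their controls were C57BL/6 kidneys labelled wild type, described by the study as littermates, and the alleles and doxycycline these controls carried or received are not given in the sources used here. In the second model let-7a-1, let-7d and let-7f-1 were deleted constitutively in every cell (let-7 KO), on a mixed CD1 and C57BL/6 background, and were compared with wild-type kidneys of that background (let-7 WT). Each group held kidneys from 2 litters, with replicates 1 and 2 from litter 1 and replicate 3 from litter 2.

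HNF4A is a nuclear receptor that switches on transporter and metabolic genes in liver, gut and the proximal tubule, and HNF4G is its close paralog. PPARA, a receptor for fatty acids, drives genes of fatty acid oxidation, the main fuel of the proximal tubule. The coactivator PGC1A, encoded by Ppargc1a, works with PPARA and with the orphan receptors ESRRA, ESRRB and ESRRG to raise mitochondrial genes, and MAF is a leucine zipper factor of the large MAF family.

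The let-7 sequences are shown because one model lacks some of these microRNAs and LIN28B is known to block their maturation. All let-7 family members with a mature form in RefSeq (GRCm38.p6) share the seed at bases 2 to 8, which is given in capitals, so loss of the deleted ones leaves others with the same seed. The deleted let-7a-1, let-7f-1 and let-7d lie on the minus strand at chr13:48538239-48538260, chr13:48537889-48537910 and chr13:48536078-48536099.
let-7a-5p: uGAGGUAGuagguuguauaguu
let-7f-5p: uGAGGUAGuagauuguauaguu
let-7d-5p: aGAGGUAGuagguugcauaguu
A pair of retained members, let-7b and let-7c-2, lie on chr15 on the same strand as Ppara, 27.6 and 28.3 kb before its annotated start.
let-7b-5p: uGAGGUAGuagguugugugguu
let-7c-5p: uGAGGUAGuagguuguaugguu

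Matches to the seed were looked for in each member's longest 3′ UTR (GENCODE M21), as CTACCTC (bases 2 to 8 of the microRNA) and as TACCTCA (bases 2 to 7 followed by A), on the transcript strand only. Ppargc1a held 1 TACCTCA, at position 42 of a 3933-base UTR. Esrrb held CTACCTC at position 620 and TACCTCA at position 621, which overlap in 1 site, and a second TACCTCA at position 898 of 2566 bases. The other 6 members held neither. Of 20398 protein-coding genes with a UTR, 9.1% held CTACCTC and 9.87% held TACCTCA. The capitals below mark the match.
Ppargc1a, position 42: agatggtcaaTACCTCAtgggacagcg
Esrrb, position 620: cttcctgcccCTACCTCagccagccgg
Esrrb, position 898: gcccctccctTACCTCAtaaaaaggca
A match is a description of letters, and microRNA binding was not measured here.

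RefSeq windows around the start site, most of each lying before it, were given for 6 of the 8 members, 11 windows in all. AGGTCA, the half-site bound by many nuclear receptors, TCAAGGTCA, the site of the ERR receptors, and CAAAGTCCA, an HNF4 site, had no match on either strand in any of these windows, against 16.3%, 0.423% and 0.475% of 32851 windows. TCAAGGTCA contains AGGTCA, so the first count includes it. Other motifs were searched as well. GTTAAT, a half-site of HNF1, had 2 matches in 1 window of Hnf4a and 1 match in 1 window of Esrrg, against 7.1% of windows. CCGGAAG, the GABP site, had no match, against 8.86%.

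Deposited counts summed to between 39926235 and 61872736 per kidney. Levels below are CPM, counts relative to library size, with library sizes scaled over all 12 kidneys by the trimmed mean of M-values (TMM), and 3 counts correspond to 0.0485 to 0.0751 CPM. Hmga2, a let-7 target, lay between 156 and 207 CPM in LIN28B Wt1 kidneys and between 12.4 and 16.4 CPM in their controls, and the rows of the deleted microRNAs were at 0 counts in all 3 let-7 KO kidneys, where counts at these rows were few in every group. LIN28B Wt1 replicate 3 and let-7 KO replicate 1 stood apart from the other kidneys of their groups. Without the first, the genes with an adjusted p under 0.05 in its model numbered 2074 instead of 194, and without the second those with an unadjusted p under 0.01 in its model numbered 1296 instead of 423. A block for litter gave 95 instead of 194. Markers of brown fat (Ucp1, Cidea, Adipoq, chosen after their values were seen) were high in C57BL/6 control replicates 1 and 2. Ucp1 stood at 16.9 and 13.9 CPM there, at 2.28 CPM in control replicate 3, at most at 1.94 CPM in LIN28B Wt1 kidneys, and at or near 0 in the let-7 groups except KO replicate 2 (2.37 CPM). The Y-linked Ddx3y stood at 77 CPM in control replicate 3 and 72.6 CPM in LIN28B Wt1 replicate 1. It was near 0 in the other kidneys of that model. Litter 2 ratios of the LIN28B model, and fits without control replicates 1 and 2, thus rest on a single control that had Ddx3y RNA. The mutant of litter 2 lacked it, and the part of sex in these values was not tested.

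**Figure D1:**
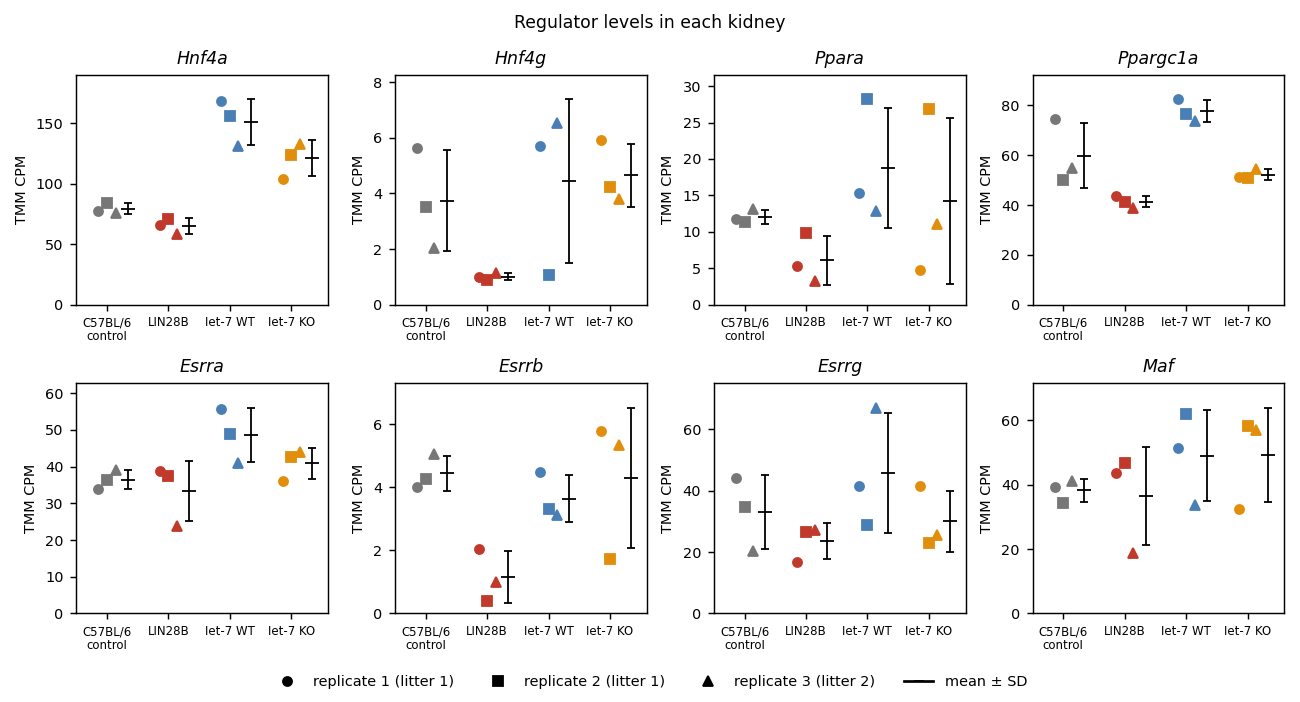
Level of each regulator (TMM CPM, linear axes from 0) in each of the 12 kidneys, by group, with the shape giving replicate and litter and the bar the mean ± SD of 3 kidneys. Every LIN28B Wt1 kidney lies below every C57BL/6 control kidney for Hnf4a, Hnf4g, Ppara, Ppargc1a and Esrrb, and every let-7 KO kidney lies below every let-7 WT kidney for Ppargc1a.

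Compared per length, as CPM per kb of annotated exon, Hnf4a was the highest of the 8 in all groups, at 16.4 ± 0.902 (SD, n = 3) in C57BL/6 controls. Ppargc1a (9.07 ± 1.99) and Esrra (8.32 ± 0.583) followed with overlapping kidney ranges. Esrrg (5.34 ± 1.93) and Maf (4.64 ± 0.424) overlapped likewise. Ppara stood at 3.14 ± 0.25 CPM per kb, apart from Maf above it and Hnf4g below it. Hnf4g (1.42 ± 0.69) and Esrrb (0.734 ± 0.0925) were lowest and overlapped. In LIN28B Wt1 kidneys the bottom pair stood lower, Hnf4g at 0.384 ± 0.0494 and Esrrb at 0.189 ± 0.136 CPM per kb, and their ranges no longer overlapped. Among let-7 KO kidneys Hnf4a stood at 25 ± 3.04 and Esrrb at 0.709 ± 0.368 CPM per kb, with Ppara (3.71 ± 2.98) overlapping both of its neighbours, Esrrg and Hnf4g.

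**Figure D2:**
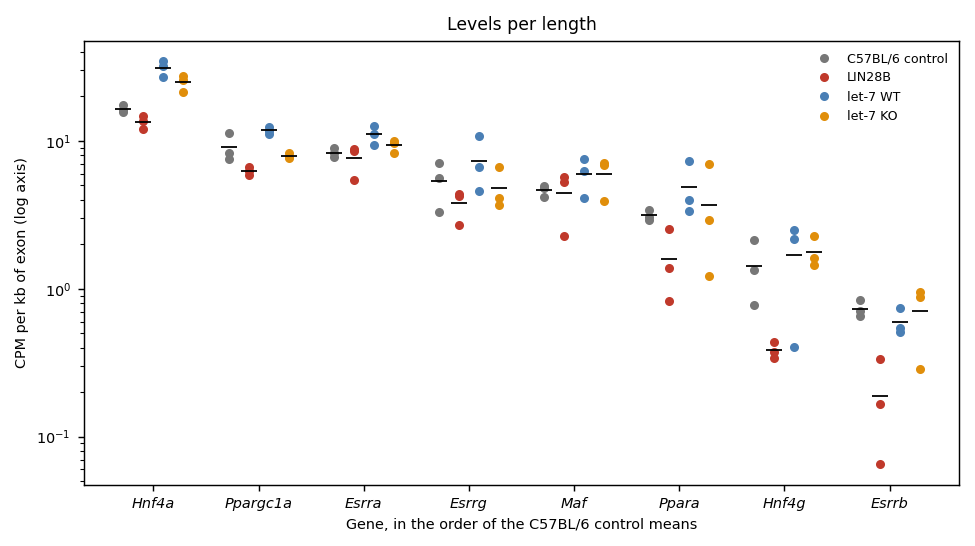
Level per kb of annotated exon (log axis) of each regulator in each kidney, coloured by group, with the black dash the group mean and genes in the order of the C57BL/6 control means. Hnf4a is highest and Esrrb lowest in all 4 groups.

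The first comparison asked how the regulators stood in kidneys with a LIN28B pulse. No member passed the test, an adjusted p under 0.05 in edgeR's quasi-likelihood test over 15793 genes (1.23% of which passed). DESeq2 called 1 member, Hnf4g, and 1264 of the 15793 genes. At an unadjusted p under 0.05 there were 4 members, Hnf4g, Ppara, Ppargc1a and Esrrb, against 18% of all genes. Fitted log2 fold changes were below 0 for 8 of 8 members, against 51.5% of all genes, with a median of -0.51 over the members and -0.02 over all genes. The kidneys did not overlap for 5 members, each lower in LIN28B Wt1, against 13.5% of all genes. Leaving out LIN28B Wt1 replicate 3, no member passed, and log2 fold changes included -0.23 for Hnf4a, -0.50 for Ppargc1a, -1.87 for Esrrb and 0.24 for Maf. With 3 kidneys against 3, the exact permutation test (two-sided) cannot give less than 0.1, and it gave 0.1 for these 5. In whole kidneys, fewer cells of a type and less RNA per cell cannot be told apart.

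Hnf4a, on chr2:163506808-163572910 (plus strand), stood at 77.8, 84.3 and 76 CPM in control kidneys and at 65.5, 70.9 and 58.2 CPM in LIN28B Wt1 kidneys, in the order of the replicates. The groups did not overlap, but the highest mutant lay close to the lowest control. Its log2 fold change was -0.29 (SE 0.145, 95% interval -0.62 to 0.04; edgeR adjusted p = 0.334).

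Hnf4g, on chr3:3508030-3658052 (plus strand), was far lower in counts, at 336, 154 and 107 in controls against 60, 48 and 70 in LIN28B Wt1 kidneys. These were 5.65, 3.53 and 2.04 CPM against 0.98, 0.897 and 1.15 CPM, so the mutants were close together and the controls were spread, with replicate 3 nearest to the mutants. The fitted value was -1.88 (SE 0.618, 95% interval -3.27 to -0.50; edgeR adjusted p = 0.151). DESeq2 gave -1.86 with an adjusted p of 0.0441, the only call among the members. Without control replicates 1 and 2, the kidneys high in Ucp1, the edgeR value was about -1. Whether fat had a part in these values was not tested. The log2 ratio of means was -2.29 in litter 1 and -0.82 in litter 2.

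Ppara, on chr15:85734983-85802819 (plus strand), stood at 11.7, 11.3 and 13.1 CPM in controls and at 5.34, 9.8 and 3.19 CPM in LIN28B Wt1 kidneys. The controls were tight and the mutants spread, with replicate 2 near the controls and replicate 3 lowest. On the log2 scale the fold change was -0.98 (SE 0.399, 95% interval -1.87 to -0.09; edgeR adjusted p = 0.233). It was -0.68 without LIN28B Wt1 replicate 3. Within litter 1 the log2 ratio of means was -0.60, and in the single pair of litter 2 it was -2.04.

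The Ppara start-site window, at chr15:85735526-85735825 on the plus strand, held 1 match to the NRF1 site (a motif of nuclear respiratory factor 1, which controls mitochondrial genes), against 4.6% of windows, and is printed to show where it lies, in capitals.
Ppara: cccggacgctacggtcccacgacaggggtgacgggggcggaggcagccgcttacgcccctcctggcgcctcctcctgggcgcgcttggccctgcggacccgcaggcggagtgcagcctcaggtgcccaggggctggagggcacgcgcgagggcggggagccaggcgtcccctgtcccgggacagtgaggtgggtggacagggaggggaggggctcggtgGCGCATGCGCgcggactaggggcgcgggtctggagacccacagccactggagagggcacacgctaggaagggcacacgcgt

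Ppargc1a, on chr5:51454250-51567726 (minus strand), stood at 74.7, 49.9 and 54.8 CPM in controls and at 43.8, 41.4 and 39 CPM in LIN28B Wt1 kidneys. All mutants lay below all controls, and control replicate 1, one of the kidneys high in Ucp1, was the highest. Brown fat is known to express Ppargc1a, and the part of fat in this difference was not tested. A log2 fold change of -0.53 (SE 0.187, 95% interval -0.95 to -0.11; edgeR adjusted p = 0.177) was fitted, and one of -0.40 against control replicate 3 alone. The log2 ratio was -0.55 in litter 1 and -0.49 in litter 2.

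Among the estrogen-related receptors, Esrra on chr19:6910977-6921813 (minus strand) stood at 34, 36.5 and 39.1 CPM in controls and at 38.9, 37.4 and 23.9 CPM in LIN28B Wt1 kidneys. Replicates 1 and 2 lay within the controls and replicate 3 below all of them. Its log2 fold change of -0.13 (95% interval -0.60 to 0.35; edgeR adjusted p = 0.817) was 0.06 without replicate 3. Esrra shares 73 exonic bases with Trmt112 on the opposite strand and 91 with the microRNA gene Mir6990, and the strand setting of the counting is not given in the sources used here.

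Esrrb, the receptor of this family best known from pluripotent stem cells and the inner ear, lies on chr12:86361117-86521628 (plus strand). Its counts were 237, 186 and 266 in controls (3.99, 4.27 and 5.06 CPM) and 124, 21 and 61 in LIN28B Wt1 kidneys (2.03, 0.393 and 1 CPM). All mutants were below all controls, with replicate 2 lowest. In edgeR the log2 fold change was -1.95 (SE 0.666, 95% interval -3.45 to -0.46; edgeR adjusted p = 0.164, and 0.0505 in DESeq2). Without the 2 controls highest in Ucp1 it was -2.14, and litters 1 and 2 gave log2 ratios of -1.77 and -2.33. Esrrb is the member with let-7 seed matches at 2 places.

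Esrrg, on chr1:187608791-188214885 (plus strand), stood at 44.2, 34.8 and 20.4 CPM in controls and at 16.8, 26.5 and 27.2 CPM in LIN28B Wt1 kidneys. The groups overlapped, because control replicate 3 lay below 2 mutants. Its fitted log2 fold change was -0.49 (95% interval -1.17 to 0.19, edgeR adjusted p = 0.447). Without control replicates 1 and 2, the kidneys high in Ucp1, it became 0.21. The part of fat in these values was not tested. Litter 1 gave a log2 ratio of -0.87 and litter 2 one of 0.42.

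Maf, on chr8:115682942-115707794 (minus strand), stood at 39.3, 34.3 and 41 CPM in controls and at 43.6, 46.8 and 18.9 CPM in LIN28B Wt1 kidneys. The mutants lay on both sides of the controls, with replicate 3 far below. Fitted over all kidneys, the log2 fold change was -0.07 (95% interval -0.74 to 0.60; edgeR adjusted p = 0.94) and was 0.24 without replicate 3. Macrophages also express Maf. The summed level of 15 macrophage and immune markers lay between 246 and 282 CPM in controls and between 176 and 259 CPM in LIN28B Wt1 kidneys, and its part in the Maf values was not tested.

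**Figure D3:**
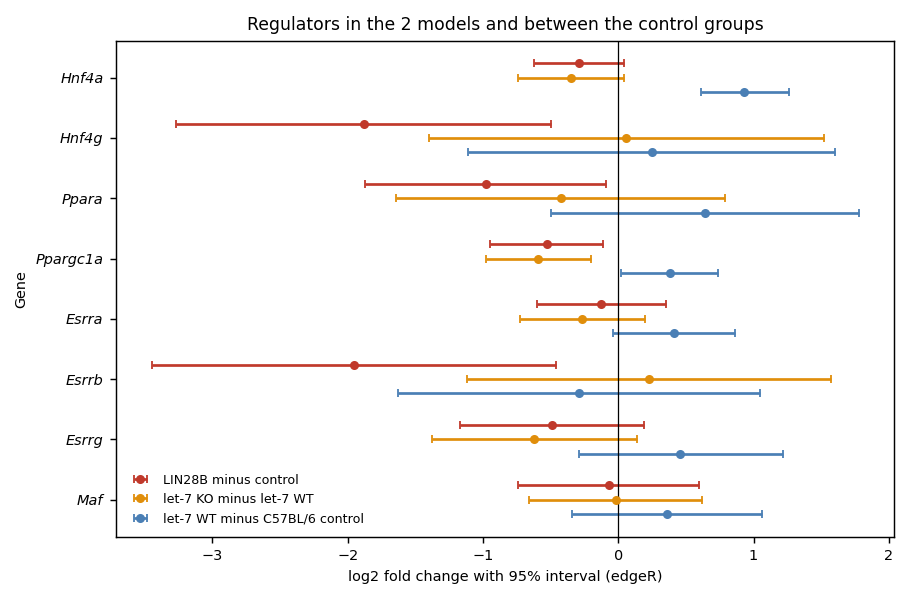
Log2 fold change with its 95% interval (edgeR, x axis) for each regulator (y axis), LIN28B Wt1 against control in red, let-7 KO against let-7 WT in orange, and let-7 WT against C57BL/6 control in blue. The red and orange intervals of Ppargc1a both lie below 0, as do the red intervals of Hnf4g, Ppara and Esrrb. The blue intervals of Hnf4a and Ppargc1a lie above 0.

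The second comparison asked the same of kidneys that lacked the 3 let-7 genes. No member passed edgeR's quasi-likelihood test over 15500 genes (0.0194% of which passed), and none passed in DESeq2, which gave no adjusted p for Hnf4g, Ppara, Esrrb and Esrrg. The count at an unadjusted p under 0.05 was 1 of 8, Ppargc1a, against 10.8% of all genes. The fitted log2 fold change was below 0 for 6 of 8 members, against 52% of all genes, with a median of -0.31. The groups did not overlap for 1 member, again Ppargc1a, against 8.79% of all genes.

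Ppargc1a stood at 82.5, 76.7 and 73.8 CPM in let-7 WT kidneys and at 51.1, 50.9 and 54.6 CPM in let-7 KO kidneys. Both groups were tight, with SDs of 4.44 and 2.09 CPM, and a wide gap lay between them. In edgeR the log2 fold change was -0.59 (SE 0.174, 95% interval -0.98 to -0.20; unadjusted p = 0.00647 and edgeR adjusted p = 0.362), which placed it at rank 262 of the genes tested. It lay between -0.63 and -0.54 when each kidney was left out, with an adjusted p of 0.133 without KO replicate 1 (edgeR), and the log2 ratio of means was -0.64 in litter 1 and -0.43 in litter 2. Ppargc1a was lower without overlap in both models, as were 2.41% of the 15136 genes tested in both.

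Hnf4a stood at 168, 156 and 131 CPM in let-7 WT and at 104, 124 and 133 CPM in let-7 KO kidneys. KO replicate 3 reached the lowest let-7 WT kidney, so the groups overlapped. Its log2 fold change was -0.35 (SE 0.177, 95% interval -0.74 to 0.04; edgeR adjusted p = 0.507), and the log2 ratio of means was -0.50 in litter 1 and 0.03 in litter 2.

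Hnf4g varied more among let-7 WT kidneys (5.72, 1.07 and 6.52 CPM) than between the groups, with KO kidneys at 5.94, 4.25 and 3.79 CPM. Its log2 fold change was 0.06 (95% interval -1.40 to 1.52) and was -0.40 without WT replicate 2. Ppara spread widely as well, at 15.3, 28.2 and 12.8 CPM in let-7 WT and 4.7, 26.9 and 11.1 CPM in KO kidneys. Its log2 fold change was -0.42 (95% interval -1.64 to 0.79), a range that holds both a fall of the size fitted for LIN28B Wt1 and a rise.

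Esrra stood at 55.8, 49 and 41 CPM in let-7 WT and 36.1, 42.7 and 44 CPM in KO kidneys, with a log2 fold change of -0.27 (95% interval -0.73 to 0.20). Esrrb stood at 4.48, 3.31 and 3.11 CPM against 5.79, 1.73 and 5.35 CPM, with KO kidneys both above and below every WT kidney (log2 fold change 0.23, 95% interval -1.12 to 1.57). Esrrg stood at 41.5, 28.7 and 66.9 CPM against 41.4, 22.9 and 25.6 CPM, and the log2 fold change of -0.62 had a 95% interval of -1.38 to 0.14. These 3 receptors overlapped between the groups. Maf stood at 51.5, 61.9 and 33.7 CPM against 32.3, 58.1 and 57.1 CPM, with a low kidney in each group (log2 fold change -0.02, 95% interval -0.66 to 0.62). Without KO replicate 1 the log2 fold change was -0.94 for Esrrg, 0.20 for Maf, -0.01 for Ppara and -0.27 for Hnf4a.

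The difference between the models was tested by an interaction term fitted over the 12 kidneys, and no member passed (0.00602% of 16598 genes did, by edgeR). DESeq2 also called 0 members. Esrrb and Hnf4g had an unadjusted p under 0.05, 2 of 8 against 6.27% of all genes. For Esrrb the change in LIN28B Wt1 was lower than that in let-7 KO by a log2 value of -2.20 (95% interval -4.11 to -0.28; edgeR adjusted p = 0.741), and for Hnf4g by -1.96 (95% interval -3.89 to -0.02; edgeR adjusted p = 0.789). For Ppargc1a the difference was 0.04 (95% interval -0.47 to 0.55) and for Hnf4a 0.04 (95% interval -0.42 to 0.49), and differences within those limits cannot be told apart here.

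Between the control groups, which differ in strain, litter and run of library numbers together, Hnf4a was the member that passed. It was higher in let-7 WT than in C57BL/6 control kidneys, 151 ± 18.8 against 79.4 ± 4.36 CPM (SD, n = 3 each), a 1.91-fold difference with no overlap. In log2 terms this was 0.93 (SE 0.152, 95% interval 0.61 to 1.26; edgeR adjusted p = 0.00845), and 0.404% of genes were called higher in this comparison. It was between 0.84 and 1.03 when each kidney was left out. The adjusted p became 0.0652 without control replicate 1, 0.0681 without control replicate 3 and 0.0591 without let-7 WT replicate 1. The fitted gap between the control groups was wider than that within either model (log2 values of -0.29 and -0.35), each of which shares a control group with it, and the sizes were not tested against each other. Esrra also did not overlap and was higher in let-7 WT, so 2 of 8 did so against 9.38% of genes, with a log2 fold change of 0.41 (95% interval -0.04 to 0.86; edgeR adjusted p = 0.588). The other 6 overlapped. Ppargc1a was among them, with a log2 fold change of 0.38, higher in let-7 WT (95% interval 0.02 to 0.74; edgeR adjusted p = 0.495). Strain, litter, library run and any doxycycline given to the littermates of LIN28B Wt1 mice cannot be told apart in this comparison.

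Within groups the members did not vary as 1 block. After each group's mean was removed, Maf and Esrra had a Pearson r of 0.897, Maf and Ppara 0.806, Maf and Hnf4a 0.789, and Hnf4g and Esrrg 0.775 over the 12 kidneys, whereas Esrrb and Ppara stood at -0.668, Esrrg and Maf at -0.646 and Esrra and Esrrg at -0.601. Of 28 pairs, 16 were positive and 12 negative. Maf, Esrra, Ppara and Hnf4a were low together in LIN28B Wt1 replicate 3, let-7 WT replicate 3 and let-7 KO replicate 1. Kidneys also differed in how far long transcripts were over-represented relative to the other kidneys. For this, each gene's mean log2 level over the kidneys was subtracted. The slope of what remained on log2 exonic length, over all genes, ran from -0.13 to 0.09. The members followed this slope with a centred r of -0.88 for Maf, -0.79 for Esrra, -0.70 for Ppara and -0.68 for Hnf4a, and of 0.86 for Esrrg and 0.74 for Hnf4g, but of -0.01 for Ppargc1a and 0.03 for Esrrb. All points share libraries and depth, and what sets the slope was not tested. With the slope as a covariate no member passed by edgeR, and Ppargc1a had a log2 fold change of -0.50 in the LIN28B model and -0.62 in the let-7 model. Other members shifted more. In the let-7 model Hnf4g went from 0.06 to 1.27, Ppara from -0.42 to -1.37, Maf from -0.02 to -0.54, Hnf4a from -0.35 to -0.52 and Esrrg from -0.62 to 0.04. In the LIN28B model Maf went from -0.07 to -0.37, Ppara from -0.98 to -1.25, Esrra from -0.13 to -0.27 and Esrrg from -0.49 to -0.28.

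**Figure D4:**
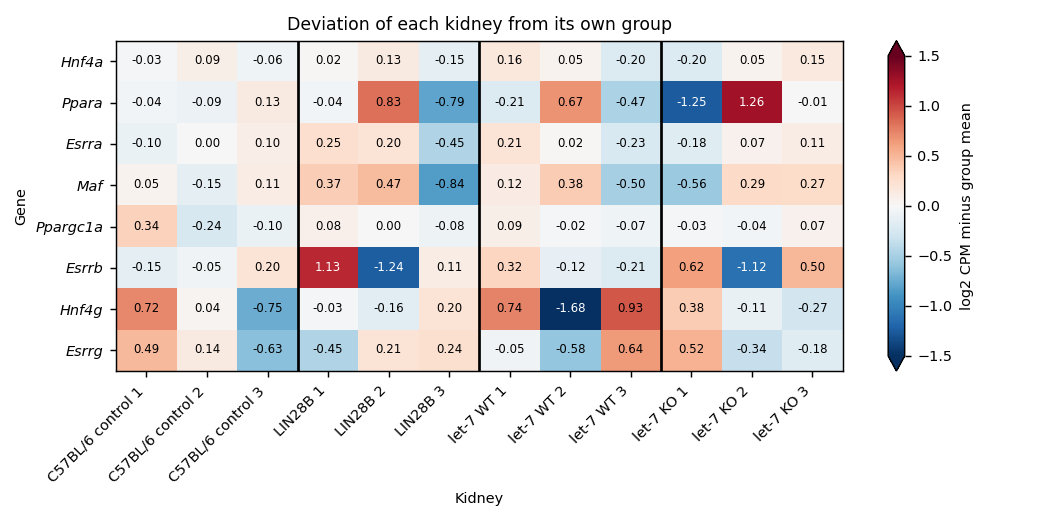
Log2 CPM of each regulator (rows) in each kidney (columns, by group and replicate) minus the mean of its own group, with red higher and blue lower and values beyond 1.5 drawn in the end colour. Maf ranges from -0.84 to 0.47 and Ppara from -1.25 to 1.26, and both are low in LIN28B Wt1 replicate 3, whereas Ppargc1a stays between -0.24 and 0.34.

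The genes closest to each member over the 12 kidneys were sought among 11822 genes with a mean of at least 5 CPM, by Pearson r of log2 CPM. For Hnf4a they were Fth1 (0.971, and 0.817 after group means were removed), Tgm1 (0.97 and 0.725) and Neu1 (0.97 and 0.715). For Ppargc1a they were Kcnj15 (0.929 and 0.51), Thrb (0.923 and 0.505) and Tmem206 (0.911 and 0.754). Their likeness to Ppargc1a was thus weaker once differences between groups were removed. Those named for Maf are Ctsz (0.964 and 0.96) and Cxx1c (0.959 and 0.956), which followed it about as closely within groups. Hnf4g was nearest to Ccdc117 (0.938 and 0.968), Abcc1 (0.921 and 0.794) and Cab39l (0.911 and 0.822), and Ppara to P2ry2 (0.929 and 0.893), Cd59a (0.919 and 0.859) and Socs2 (0.913 and 0.859). Among the estrogen-related receptors, Esrra was nearest to Amdhd2 (0.939 and 0.972), Gsta3 (0.917 and 0.859) and Uap1l1 (0.913 and 0.925). Esrrg was nearest to Gng12 (0.923 and 0.935), Spcs3 (0.908 and 0.874) and Capn2 (0.902 and 0.856). For Esrrb they were Vwa8 (0.914 and 0.778), Scn4b (0.913 and 0.808) and AI987944 (0.902 and 0.745). By rank their likeness to Esrrb was weaker, with a Spearman rho of 0.587, 0.734 and 0.727. No member was among the nearest genes of another.

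Genes known to depend on the regulators were described from lists, which give counts and medians only. Of 35 proximal tubule genes known as HNF4 targets, 12 fell and none rose in LIN28B Wt1 kidneys (edgeR, adjusted p under 0.05; 0.766% of all genes fell), with a median log2 fold change of -0.78. Those of lowest p were Gatm, an enzyme of creatine synthesis (-1.52, adjusted p = 0.000938), the phosphate transporter Slc34a1 (-1.20, adjusted p = 0.000977), the inositol oxygenase Miox (-1.62, adjusted p = 0.00314) and the organic anion transporter Slc22a8 (-1.26, adjusted p = 0.00541), all by edgeR. Slc34a1 lay between 1150 and 1170 CPM in controls and between 485 and 521 CPM in mutants, a wider separation than that of Hnf4a itself. Of 42 genes of fatty acid oxidation known as PPARA targets, 5 fell and none rose, with a median of -0.46. Cyp4a14 and Cyp4a10, which oxidize fatty acids at their ends, changed by -2.78 (edgeR adjusted p = 0.000977) and -1.44 (edgeR adjusted p = 0.00804). Acsl1, which activates fatty acids, changed by -1.72 (edgeR adjusted p = 0.00836) and the peroxisomal Ehhadh by -1.23 (edgeR adjusted p = 0.019).

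Of 58 mitochondrial and distal tubule genes known as targets of PGC1A and the estrogen-related receptors, 1 fell, Umod, the uromodulin of the thick ascending limb (log2 fold change -1.23; edgeR adjusted p = 0.0409), and the median was -0.10. The counts of these lists changed when single kidneys were left out, and so did calls over all genes (edgeR). Those numbered 194 in the full fit and 2074 without LIN28B Wt1 replicate 3. They were 71 and 46 without LIN28B Wt1 replicates 1 and 2, and 27, 21 and 65 without control replicates 1, 2 and 3. Proximal tubule genes that fell numbered 20 without LIN28B Wt1 replicate 3, 7 without control replicate 3, 5 without control replicate 1 and 4 without control replicate 2 or LIN28B Wt1 replicate 2. Fatty acid genes numbered 17 without LIN28B Wt1 replicate 3, 3 without LIN28B Wt1 replicate 2 and 1 without control replicate 1 or 2. The energy list gave 10 without LIN28B Wt1 replicate 3 and 0 without any other kidney. Without LIN28B Wt1 replicate 1 the proximal tubule count was 8. A fit against control replicate 3 alone leaves 1 control kidney, so calls from it are not given.

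In let-7 KO kidneys no gene of these lists passed by edgeR. Of the proximal tubule list, 13 of 35 had an unadjusted p under 0.01, 11 lower and 2 higher, against 2.73% of all genes, and DESeq2 called 7 lower. The lowest p values were those of G6pc, the last enzyme of glucose release (log2 fold change -1.37, edgeR adjusted p = 0.103), and Gatm (-0.97, edgeR adjusted p = 0.129). The fatty acid list had 6 of 40 lower and none higher at that threshold, and DESeq2 called 5 lower, led by Acsl1 (-1.02, edgeR adjusted p = 0.325) and Cyp4a10 (-1.07, edgeR adjusted p = 0.345). The energy list had 1 higher, Atp5o (0.85), and 1 lower, Mfn2 (-0.63), of 57. Between the control groups 3 proximal tubule genes, Pdzk1, Slc17a3 and Slc47a1, were higher in let-7 WT (log2 fold changes 0.91, 0.97 and 0.77, edgeR adjusted p of 0.0191, 0.0345 and 0.0439), as Hnf4a was. Of the energy list Kcnj10, a potassium channel of the distal tubule, was higher there (1.55, edgeR adjusted p = 0.0418).

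**Figure D5:**
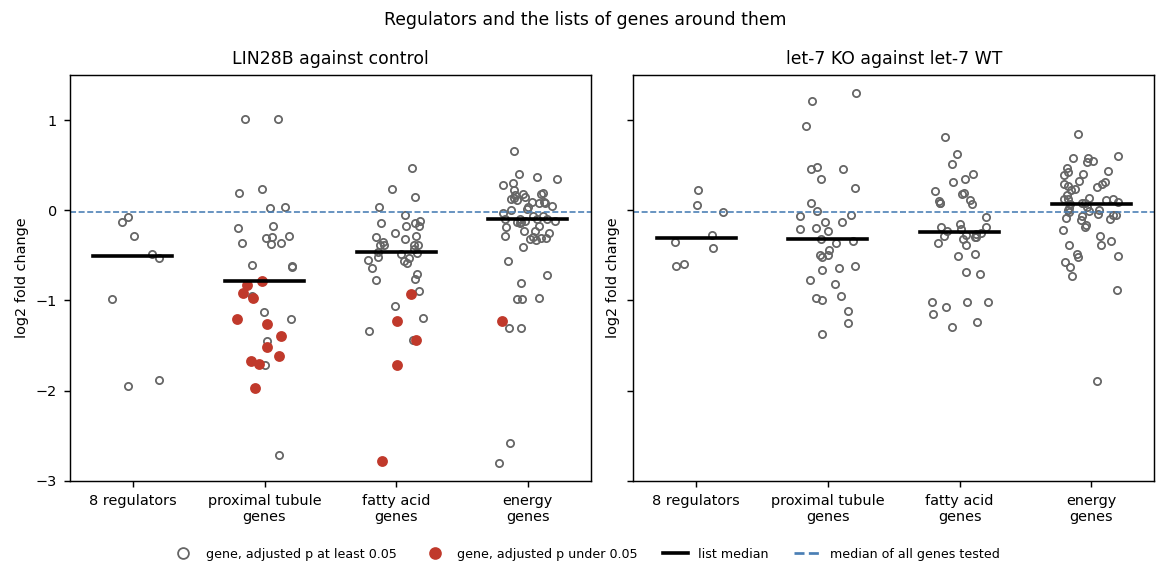
Log2 fold change of each gene (points) of the 8 regulators and of the 3 lists of genes around them in LIN28B Wt1 (left) and let-7 KO (right), filled where the adjusted p was under 0.05, with the list median in black and the median of all genes dashed. In LIN28B Wt1 the 12 proximal tubule genes, 5 fatty acid genes and 1 energy gene that passed all lie below 0, and no point on the right is filled.

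Of 23 coactivators, corepressors and partners of the regulators none passed in either model by edgeR. The lowest p values were those of Tfb1m (log2 fold change 1.02, edgeR adjusted p = 0.0806) and Prkaa2, a subunit of AMP-activated kinase (-1.12, edgeR adjusted p = 0.0943), in the LIN28B model, and Prkaa2 (-0.90) and Ncoa1 (-0.67) in the let-7 model. Of 19 related nuclear receptors and MAF factors tested in LIN28B Wt1, the vitamin D receptor gene Vdr fell (-1.02, edgeR adjusted p = 0.0305), and none of 20 passed in the other model, with Vdr at -0.79 and Mafk at -0.81. Of 21 other tubule transcription factors none passed by edgeR in either model. The lowest p values in the LIN28B model were those of Klf15 (-0.89, edgeR adjusted p = 0.056) and Irx3 (-0.59), and Tfcp2l1 stood at -0.54 in the let-7 model. Of 13 reported let-7 targets 5 rose in LIN28B Wt1, among them Hmga2 (3.72), Igf2bp1 (1.90), Igf2bp2 (1.54) and Dicer1 (0.98), and none of 12 passed in let-7 KO, where Hmga2 stood at 1.22 and Plagl2 at 0.53.

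Markers of tubule and other cells were read beside the regulators. In LIN28B Wt1 kidneys 6 of 15 cap mesenchyme markers, the nephron progenitors that lie before the tubule stage, rose by edgeR (0.462% of all genes rose), and their summed level lay between 983 and 1300 CPM against 727 to 766 CPM in controls. Of 15 loop of Henle and distal tubule markers 2 fell, with summed levels of 1110 to 1320 against 1900 to 2520 CPM. One marker fell among 14 of early nephrons and one among 13 of podocytes, one rose among 5 of adrenal gland and one among 5 of skeletal muscle, and none passed of 17 for collecting duct, 15 for macrophages and other immune cells, 12 for endothelium, 13 for stroma, 10 for fat, 9 for liver and 3 for erythroid cells. Summed levels were nonetheless lower without overlap in LIN28B Wt1 for endothelium (854 to 953 against 1230 to 1250 CPM), stroma (3700 to 4370 against 4620 to 5190 CPM), early nephrons (895 to 961 against 1120 to 1270 CPM) and fat (244 to 417 against 429 to 584 CPM). Of the 12 endothelial markers 11 had a log2 fold change below 0 and 6 were lower at an unadjusted p under 0.01, with a median of -0.51. Skeletal muscle markers summed higher without overlap (68.4 to 77.8 against 22.5 to 32.2 CPM), as did adrenal markers (8.6 to 9.69 against 3.6 to 5.58 CPM). Over the 12 kidneys the fat sum was mainly Fabp4 (mean 407 CPM, next Cfd at 6.1 CPM). The skeletal muscle sum was mainly Des (mean 36.5 CPM, next Mylpf at 3.02 CPM). These sums therefore do not measure how much fat or muscle a sample held.

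No marker passed in let-7 KO by edgeR, but several sums did not overlap with let-7 WT. Loop of Henle and distal tubule markers summed lower (1580 to 2160 against 2250 to 2710 CPM). Those of collecting duct (3470 to 3840 against 1960 to 3370 CPM), podocytes (2720 to 3290 against 1780 to 2430 CPM), fat (423 to 647 against 258 to 421 CPM) and skeletal muscle (36.8 to 54.5 against 22.2 to 28.2 CPM) summed higher. Single genes made up much of these sums, Aqp2 for collecting duct, Cdkn1c for podocytes, Fabp4 for fat and Des for skeletal muscle. Log2 fold changes were below 0 for 8 of 17 collecting duct markers and 9 of 13 podocyte markers. Cap mesenchyme markers overlapped in their sum, at 523 to 631 against 515 to 679 CPM. The 2 of highest level, Cdh11 and Itga8 (means of 228 and 109 CPM over the 12 kidneys), had log2 fold changes of -0.36 and -0.32. Of the 15 markers tested, however, only 4 were below 0, with a median of 0.52. At an unadjusted p under 0.01 (edgeR) 2 were higher and 0 lower, against 2.73% of all genes in either direction. The part of a changed share of cells in the values of the 8 regulators was not tested.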

How the data were processed

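RNA of each whole kidney was made into libraries with a SMARTer Ultra Low RNA kit and sequenced on an Illumina machine. The authors deposited raw counts of reads per gene symbol, 1 table per kidney, which are not normalized. The submitters' processing notes name cutadapt, TopHat2 2.0.9, Bowtie2, SAMtools 0.1.19, HTSeq and mm10. The annotation and the strand setting are not given in the sources used here.

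Counts were analysed in edgeR 4.0.16 (R 4.3.3) with filterByExpr (minimum count 10, minimum total 15), TMM scaling and quasi-likelihood fits, and p-values were adjusted over all genes tested by the Benjamini-Hochberg method. Each model was fitted alone, and the interaction and the control groups in 1 fit of 12 kidneys. Alternatives were DESeq2 1.42.0, other scalings and filters, covariates, litter as a block, a joint fit, an unadjusted p under 0.01 and each kidney left out. Scripts were tested on simulated counts. There the edgeR test (adjusted p under 0.05) recovered 29% of genes changed by a log2 value of 1 in the LIN28B design and 21% in the let-7 design. For a log2 value of 2 the shares were 88% and 76%. A member that did not pass is therefore not shown to be unchanged. The changed genes were drawn only from genes above a set mean count, which Hnf4g and Esrrb did not reach in the LIN28B design. The shares recovered there do not cover these members. Per length, CPM was divided by the union of annotated exons (GENCODE M21, GRCm38, which matched 98.2% of symbols).

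Litter numbers come from the labels and were taken to pair mutants with controls, described as littermates. Deviations from group means had a mean correlation of -0.15 (LIN28B Wt1) and -0.027 (let-7 KO) between kidneys of the same litter, and 0.18 and 0.031 between litters. Deviations sum to 0 within a group, so the averages within and between litters depend on each other. They are not separate checks of the pairing. No 2 kidneys of a group agreed within sampling noise. The labels name litters but not animals, so p-values measure the spread between these kidneys.

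Named are the 8 members; of each gene list the up to 4 genes of lowest p that passed in each direction, or otherwise the 2 of lowest p; the 3 genes most like each member; and Lin28b and Hmga2 as checks. A few genes that this rule names are not reported here. The members and lists were chosen with earlier results of these data known.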

Additional observations from a re-analysis of the deposited data

How the results depend on the processing

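No member passed in either model under the alternatives run, apart from Hnf4g in DESeq2 (1 member in LIN28B Wt1, adjusted p 0.0441) and Ppargc1a at an unadjusted p under 0.01 (1 member in let-7 KO). A replicate block for litter called 0 members, with Ppargc1a at -0.53 and -0.59, and 8, 4 and 1 genes lower in the proximal tubule, fatty acid and energy lists of the LIN28B model. It changed no call of a member in the models, and was not run between the control groups. The strict filter (1 CPM in every kidney) left Hnf4g and Esrrb out of the LIN28B fit and the joint fit. With each kidney left out, the members called between the control groups numbered 0 to 1.

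Directions that turned belonged to members whose intervals include 0 (log2 fold changes). For Maf in let-7 KO the values were 0.01 (DESeq2 size factors), 0.02 (upper-quartile scaling), 0.01 (DESeq2), 0.01 (block) and 0.00 (joint fit). With the transcript length covariate Esrrg in let-7 KO was 0.04, and the differences between models were -0.26 for Esrrg and 0.21 for Maf. With each kidney left out, the LIN28B model gave -0.25 to 0.06 for Esrra and -0.27 to 0.24 for Maf. The let-7 model gave -0.40 to 0.44 for Hnf4g, -1.27 to 0.00 for Ppara, -0.07 to 0.61 for Esrrb and -0.23 to 0.20 for Maf. The difference ran from -0.05 to 0.13 for Hnf4a, -1.10 to 0.27 for Ppara, -0.07 to 0.23 for Ppargc1a, -0.00 to 0.31 for Esrra, -0.27 to 0.42 for Esrrg and -0.30 to 0.24 for Maf. The control groups gave -0.14 to 0.71 for Hnf4g. The cause of these turns was not tested.

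Counts of genes lower in the lists moved more. In the LIN28B model (12, 5 and 1) they were 21, 16 and 8 in DESeq2, 21, 20 and 11 with the length covariate, and 20, 15 and 7 at an unadjusted p under 0.01. Calls over all genes rose with them, from 194 to 1264 in DESeq2, 1338 with the length covariate and 1158 at that p. The fatty acid count was 9 with the strict filter. The energy count was 3 with no filter, 6 with the strict filter, 0 with the covariate of Y-linked genes and 4 in the joint fit. Leaving out each kidney gave 4 to 20, 1 to 17 and 0 to 10, while calls over all genes ran from 21 to 2074. In the let-7 model (0 in each) DESeq2 gave 7 and 5 for the first 2 lists (235 of all genes, against 3), an unadjusted p under 0.01 gave 11, 6 and 1, and no filter, the strict filter and the joint fit gave 1 proximal tubule gene each. Between the control groups (0 lower) DESeq2 gave 1 energy gene, the length covariate 1 proximal tubule gene, and an unadjusted p under 0.01 gave 1 of each. The cause was not tested.

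Leaving out the 2 control kidneys of highest Ucp1 was chosen after seeing the data. It leaves 1 control, assumed to vary like the mutants, so calls from this fit are not given. The log2 fold change of Esrrg was 0.21 there. Hnf4g and Esrrb had as few as 48 and 21 counts in a kidney, and 3 kidneys a group limit every interval.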
